A study of Mus musculus with 6 samples.

Results

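The cytosines described here are the most deeply read positions in a single-base map of 5-formylcytosine (5fC) and 5-hydroxymethylcytosine (5hmC) in E14 cells, an established line of mouse embryonic stem cells. They were chosen by their read numbers alone: a cytosine on chromosomes 1 to 19 was a member when it had 500 or more reads in the 5fC list, in the 5hmC list or in both. There were 520 members among the 21893758 autosomal cytosines in either list, or 0.00238%. The 5fC list gave 322 members, 0.00520% of its 6186387 autosomal sites, and the 5hmC list gave 362, 0.00177% of its 20434856 sites. These numbers follow from the choice and describe how rare such cytosines were.

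The labels describe 6 Pvu-Seal-seq libraries of genomic DNA from E14 cells grown on gelatin in medium with serum and LIF: a passage 14 culture gave 2 technical replicates for 5fC and 2 for 5hmC, and a separate passage 12 culture gave 2 more for 5hmC. Each list holds 1 pooled read number per cytosine. Replicate error is therefore unknown, and the marks could not be compared by a test. Summed autosomal reads were 101416586 for 5fC and 260905804 for 5hmC, a ratio of 0.389, and the lists held medians of 12 and 8 reads per site. The 95% Wilson intervals given below cover only the error of counting sites. Neighbouring cytosines are not independent, nor are PCR reads that carry no molecular identifier. Positions are in build mm9 and are counted from 1.

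5hmC is made from 5-methylcytosine by the TET enzymes, which can oxidise it further to 5fC, a base that the glycosylase TDG can remove. In this assay the enzyme PvuRts1I cuts DNA at a short distance from the modified cytosine, so that the end of a read points back to it. Mouse chromosomes end in long arrays of satellite DNA beside the centromere. The most abundant of these, the major satellite, is built of tandem units of 234 bases made of shorter subrepeats, and short copies of it also lie elsewhere in genome assemblies. An assembly holds only a small part of such arrays, so reads from many copies can be placed on few positions. The handling of reads that match several positions and of duplicate reads, on which such depths depend, was not given in the sources used here.

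Members from the 2 lists overlapped in part. Of the 520, 164 had 500 or more reads in both lists, 158 in the 5fC list alone and 198 in the 5hmC list alone. The 322 members chosen by 5fC had a median of 1040.5 5fC reads, and the 362 chosen by 5hmC a median of 913 5hmC reads. Together the members of the 5fC list held 1.43% of all autosomal 5fC reads, and those of the 5hmC list 0.666% of the 5hmC reads. Close to the threshold there was no break: for 5fC 5 members were less than 5 reads above it and 3 cytosines up to 5 reads below it, and for 5hmC 3 and 4.

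The deepest member was a CG cytosine on the minus strand of chromosome 2 at position 98503014, with 375023 5fC and 417382 5hmC reads. It was followed in both lists by the minus-strand CG cytosine at position 98507265, with 149169 5fC and 340509 5hmC reads. These 2 cytosines held 36.2% of the reads of the 5fC members and 43.6% of those of the 5hmC members, and the 10 deepest held 52.3% and 63.2%. The next in the 5fC list were positions 98507413 with 39181 5fC reads, 98506660 with 37087 and 98502498 with 33384, of which the last is a CA cytosine. The next in the 5hmC list were position 98506660 with 72386 5hmC reads, position 98502567 with 56465, and position 3002983 of chromosome 9 with 49365. Except for that last cytosine, all of these lay within 1 hot spot on chromosome 2.

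**Figure D1:**
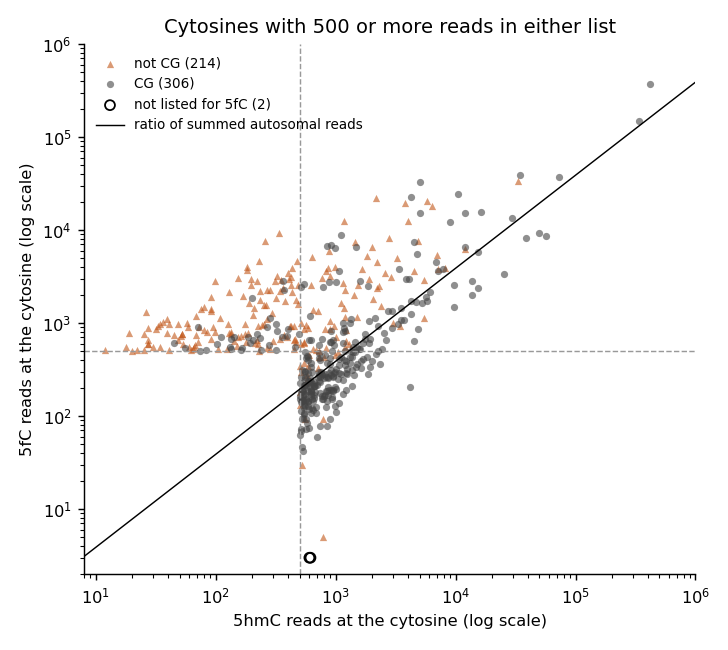
Each point is 1 of the 520 members, with its 5hmC reads on the horizontal and its 5fC reads on the vertical log axis; dashed lines mark 500 reads and the solid line the ratio of summed autosomal reads, 0.389. The 214 members outside CG (triangles) lie mostly above the line and reach furthest to the left, whereas the 306 CG members have a median ratio of 0.343; the open circle at the bottom marks the 2 members not listed for 5fC.

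To ask whether a deep cytosine of one mark also carried the other, members were looked up in the list that did not choose them. All 322 5fC members were listed for 5hmC (interval 98.8 to 100%), against 76.4% of all autosomal 5fC sites. Their 5hmC reads ran down to 12. Of the 362 5hmC members, 360 were listed for 5fC, or 99.4% (98.0 to 99.8%), against 23.1% of all autosomal 5hmC sites. The shares were nearly the same at 100 to 499 reads in the list looked up from, 99.3% of 19998 5fC sites and 97.6% of 29477 5hmC sites. These sites include the few that were members through the other list.

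The depth in the other list set the members further apart. Of the 5fC members, 50.9% (45.5 to 56.3%) had 500 or more 5hmC reads, against 0.00582% of all 5fC sites, and of the 5hmC members 45.3% (40.3 to 50.5%) had 500 or more 5fC reads, against 0.00158% of all 5hmC sites. The 5fC members had a median of 528 5hmC reads and the 5hmC members a median of 432 5fC reads, against 70 and 53 at sites with 100 to 499 reads of the mark looked up from. The 2 members missing from the 5fC list were a CC cytosine on the plus strand of chromosome 2 at position 45619444 with 616 5hmC reads, and a CT cytosine on the plus strand of chromosome 5 at 89048519 with 603. Each stood alone, with no other member within 10 kb. Absence from a list does not show a lack of reads, because the listing rule is unknown.

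Members of the 5fC list were often outside CG dinucleotides. Those of the 5hmC list were so about as often as other 5hmC sites, but more often than sites with 100 to 499 reads. Most 5hmC and 5fC in mammalian DNA lies at CG, where DNA methyltransferases place the methyl group. Of the 5fC members, 129 of 322 were CG, or 40.1% (34.9 to 45.5%), against 75.1% of the 5fC sites under 500 5fC reads and 93.0% of those with 100 to 499. Of the 5hmC members, 273 of 362 were CG, or 75.4% (70.7 to 79.6%), against 76.3% of the 5hmC sites under 500 5hmC reads and 98.4% of those with 100 to 499. The CG share was highest at 100 to 199 reads, at 93.7% for 5fC and 98.9% for 5hmC. It was lower already at 200 to 499 reads, at 84.2% and 80.8%, and at 500 to 999 reads it was 40.3% for 5fC and 78.1% for 5hmC. With 1000 or more reads the shares were 39.9% and 72.0%. The 214 members outside CG were 119 CA, 68 CT and 27 CC cytosines. The chromosome 2 hot spot alone held 154 of the 322 5fC members and 78 of the 362 5hmC members. Without it, 76 of the 193 5fC members outside CG and 46 of the 89 5hmC members outside CG were left. The CG shares of members thus rest in part on that hot spot. Leaving it out, the CG share over members of either list was 73.6%, against 58.8% with it.

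The gap between the marks in CG share depended on the threshold. When the 5fC threshold was lowered by the ratio of summed reads, to 194 reads, the 5fC list gave 1923 members of which 77.5% were CG, close to the 75.4% of the 362 5hmC members.

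**Figure D2:**
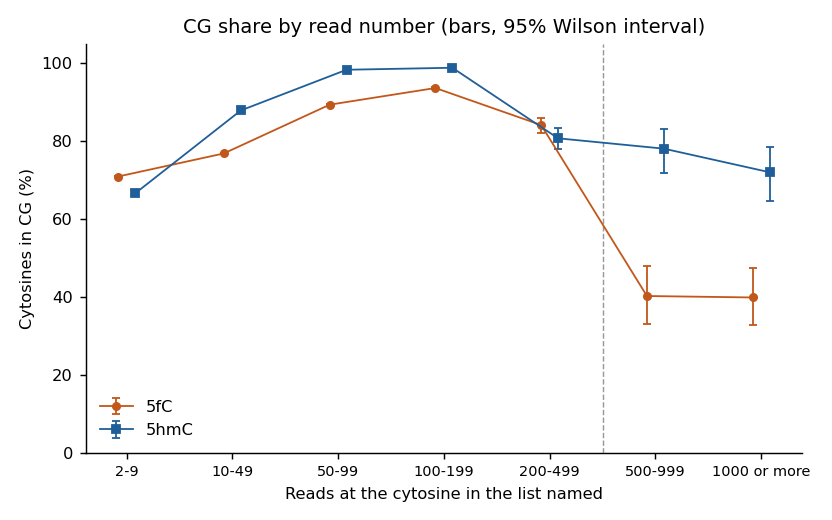
The share of cytosines in CG is plotted against the number of reads at the cytosine for 5fC (circles) and 5hmC (squares), with 95% Wilson intervals; the dashed line marks the threshold of 500 reads. Both shares are highest at 100 to 199 reads, 93.7% and 98.9%, and at 1000 or more reads they are 39.9% and 72.0%.

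The balance of the marks at a member went with its dinucleotide. The median ratio of 5fC to 5hmC reads was 0.343 over the 306 CG members and 4.33 over the 212 members outside CG that were in both lists. Among CG members 59 of 306 had more 5fC than 5hmC reads. Outside CG this held for 96 of 119 CA, 56 of 67 CT and 18 of 26 CC members. Both read numbers took part in the choice, so these are descriptions. The medians differed between hot spots, and 119 of the 214 members outside CG lay in the chromosome 2 hot spot. There the median was 6.02 outside CG and 0.956 at CG. On chromosome 9 the 2 largest hot spots had medians of 2.98 and 5.30 outside CG, and 0.542 and 0.880 at CG. On chromosome 11 the median was 0.466 for 13 members outside CG, against 0.323 at CG. On chromosome 15 it was 1.04 for 4, against 0.526. Of the members with 500 or more reads in both lists, the median ratio was 0.521 for 96 CG and 1.37 for 68 other cytosines. Over all autosomal reads the ratio was 0.354 at CG and 0.619 outside CG. Among cytosines with 2 to 499 reads in both lists the medians were 0.722 for 3868425 CG and 1.36 for 858542 other cytosines. With 100 to 499 reads in both lists they were 1.05 for 4446 CG and 1.01 for 157 other cytosines. Asking for 100 to 499 reads in both lists limits how far a ratio can lie from 1. That near equality therefore cannot tell whether the contexts differ.

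The extremes of the ratio lay outside CG in all but 1 case. The highest were a minus-strand CA cytosine of chromosome 2 at position 98502680, with 1320 5fC and 26 5hmC reads, a minus-strand CT at 98502547 with 513 and 12, and a minus-strand CT of chromosome 9 at 3000392 with 789 and 19. The lowest were a lone CT cytosine on the minus strand of chromosome 18 at 60113576, with 5 5fC and 777 5hmC reads, a CG cytosine of chromosome 2 at 98504196 with 207 and 4167, and a lone CT on the minus strand of chromosome 5 at 59039154 with 30 and 519.

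Members lay close together. When members less than 10 kb from the next were joined, they formed 68 hot spots, of which 46 held 1 member and 22 held more. Hot spots of 2 or more members held 474 of the 520, or 91.2% (88.4 to 93.3%), and the 6 hot spots of 10 or more members held 428, or 82.3%. Chromosome 2 held 169 members, chromosome 11 held 131 and chromosome 9 held 113, together 413 of 520, while chromosomes 7 and 16 had none. Chromosome 2 held 32.5% of the members, against 7.37% of the autosomal 5fC and 7.55% of the 5hmC sites. By reads the leading hot spot held 77.6% of the 5fC and 70.9% of the 5hmC reads at members.

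Some hot spots lay at the ends of the assembled chromosomes. On chromosomes 4, 9, 11, 12, 17 and 18, a hot spot began less than 200 kb from the first listed cytosine, beside the gap that stands for the centromere. These 6 hot spots held 222 members, but 130 of them were on chromosome 11 and 76 on chromosome 9. The hot spots of chromosomes 4, 12, 17 and 18 held 1, 3, 5 and 7. The share of all listed cytosines that lie so near the first one was not computed, so the count is a description. The hot spot on chromosome 9 began 0.018 kb from the first listed cytosine, that on chromosome 18 5.32 kb and that on chromosome 11 25.6 kb. At the other end, 1 hot spot of 4 CG members lay 95.6 kb from the last listed cytosine of chromosome 2, at 181652186 to 181652419. It spans 234 bases from its first to its last member and is made of 2 dyads at its ends. Cytosines of the same strand in these dyads lie 232 bases apart, and no repeat was looked for in this hot spot. The first dyad had 501 5fC and 2258 5hmC reads on the plus strand, and 292 5fC and 1225 5hmC reads on the minus strand. The last had 1446 5fC and 3503 5hmC reads on the plus strand, and 863 5fC and 398 5hmC reads on the minus strand.

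**Figure D3:**
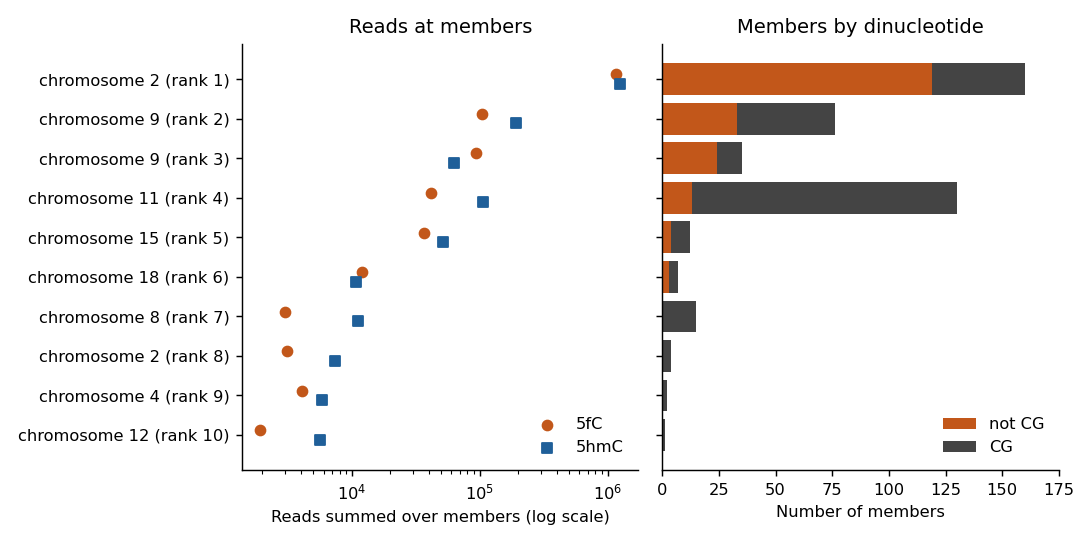
The 10 hot spots with the most reads are ranked from top to bottom; the left panel gives 5fC (circles) and 5hmC (squares) reads summed over members on a log axis, and the right panel the number of members outside and inside CG. The chromosome 2 hot spot of rank 1 holds 1161173 5fC and 1254002 5hmC reads, and 119 of its 160 members are outside CG, against 13 of 130 on chromosome 11.

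The largest hot spot by reads and by members was on chromosome 2 from 98502402 to 98507440, 5039 bases with 160 members. Its members had 141 to 375023 5fC reads with a median of 1652, and 12 to 417382 5hmC reads with a median of 467. Only 41 of them were CG, and 66 were CA, 37 CT and 16 CC. In all, 123 of the 160 had more 5fC than 5hmC reads. Over every listed cytosine of the hot spot, members or not, CG took 69.0% of the 5fC and 87.9% of the 5hmC reads, against 78.9% and 86.8% over the autosomes. The ratio of 5fC to 5hmC reads was 0.741 at CG and 2.41 outside CG, both above the autosomal 0.354 and 0.619. Positions 98503014 and 98507265 gave 375023 and 149169 of the 824457 CG 5fC reads. They gave 417382 and 340509 of the 1112143 CG 5hmC reads. The CG shares of reads and the CG ratio therefore rest largely on these 2 cytosines.

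The edges of this hot spot were sharp. It held 459 listed 5fC and 413 listed 5hmC cytosines, whereas the 10 kb on either side together held 4 and 20, with at most 26 and 39 reads. Inside, listed cytosines fell into 4 stretches parted by 635, 583 and 894 bases with none in either list. The first stretch, of 786 bases, had 43 members with 546503 5fC and 566180 5hmC reads among its listed cytosines. The last, of 1034 bases, had 102 members, 618974 5fC and 658090 5hmC reads. The stretches between them had 9 and 6 members. The profile of reads along the hot spot shows these stretches on both strands.

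The deepest 2 cytosines had deep neighbours of the same strand. Around position 98503014, CC cytosines 3 bases away on either side had 22093 and 20462 5fC reads, 5.89% and 5.46% of the deepest, and 2158 and 5769 5hmC reads, 0.517% and 1.38%. The CG cytosine of the opposite strand had 2769 5fC and 886 5hmC reads. Next to position 98507265, a CA cytosine 2 bases away had 19394 5fC reads, 13.0% of the deepest, and 3751 5hmC reads, 1.10%. Reads at such neighbours were a larger part of the deepest cytosine for 5fC than for 5hmC at all 3 of these cytosines. How far a deep cytosine adds reads to its neighbours was not tested.

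**Figure D4:**
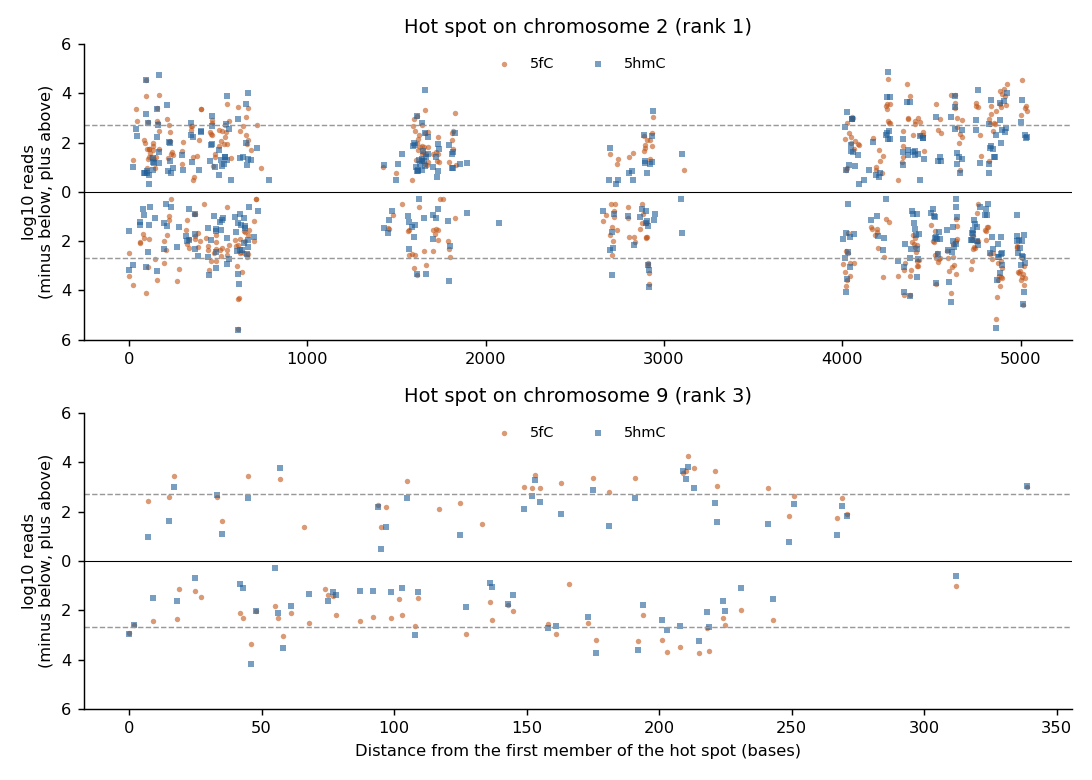
Each point is the 5fC (circles) or 5hmC (squares) value of a listed cytosine of the hot spot on chromosome 2 (upper panel) or of the third hot spot by reads, on chromosome 9 (lower panel), at its distance from the first member; height is the log10 read number, above 0 for the plus and below 0 for the minus strand, and dashed lines mark 500 reads. In the upper panel 4 stretches are parted by 635, 583 and 894 empty bases.

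The next hot spots by reads were both on chromosome 9. The first, from 3000032 to 3038007, had 76 members, 43 of them CG, with 104394 5fC and 191568 5hmC reads. Their medians were 702.5 5fC and 570.5 5hmC reads, and 45 of the 76 had more 5fC than 5hmC reads. The other, from 35112828 to 35113167, packed 35 members into 340 bases, with 92614 5fC and 62266 5hmC reads. Its ratio of summed member reads, 1.49, was the highest of the 10 hot spots with the most reads and 3.83 times the autosomal ratio. Only 11 of its members were CG. Its deepest 5fC cytosine had 18081 reads, and CG took 21.6% of all 5fC and 60.5% of all 5hmC reads between its ends. Flanks of 10 kb held 24 listed 5fC and 112 listed 5hmC cytosines, with at most 202 and 370 reads.

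Dyads of the first chromosome 9 hot spot had the same deeper strand for both marks in 11 of 16 cases with reads on both strands in both lists. The corresponding counts were 15 of 17 on chromosome 2, 3 of 6 in the second chromosome 9 hot spot, 83 of 94 on chromosome 11, 6 of 7 on chromosome 15 and 7 of 11 on chromosome 8. At the dyad that starts at 3002983 the plus cytosine had 9248 5fC and 49365 5hmC reads and the minus cytosine 6841 5fC and 908 5hmC reads, so that the plus strand was deeper for both. At 3025521, chosen after its values were seen, the plus cytosine had 3354 5fC and 25092 5hmC reads, and the minus cytosine 6664 5fC and 854 5hmC reads, so that the deeper strand was not the same for both marks.

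Over all 259 CG dyads with a member, 193 were listed on both strands in both lists. In these dyads the deeper strand was the same for both marks in 164 of the 192 with unequal reads, or 85.4% (79.7 to 89.7%). The share was 87.6% among other dyads with 100 reads or more at a cytosine and 64.0% among all other dyads listed in full. The deeper strand exceeded the other by a median of 2.92 times for 5fC and 6.97 times for 5hmC in member dyads, against 3.78 and 3.85 times in other dyads with 100 reads or more. Picking dyads by a deep cytosine favours unequal strands, and more member dyads were chosen by 5hmC than by 5fC, so these folds are descriptions. Only 19 dyads had 500 or more 5fC reads on both strands, and 39 had as many 5hmC reads.

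Members outside CG seldom had the CG partner that most other listed cytosines outside CG had. PvuRts1I favours sites with a second cytosine on the opposite strand at a fixed distance, so a listed CG was looked for 20 to 23 bases downstream in the direction of the cytosine's own strand. Among members outside CG it was found for 26 of 193 for 5fC, or 13.5% (9.36 to 19.01%), and for 15 of 89 for 5hmC, or 16.9% (10.5 to 25.96%). Cytosines outside CG with under 500 reads in the same list had shares of 57.2% for 5fC and 62.3% for 5hmC, and those of them with 100 reads or more 59.1% of 1400 (56.5 to 61.6%) and 31.8% of 478 (27.8 to 36.1%). The intervals of members and of these deep cytosines did not overlap for either mark. These intervals treat cytosines as independent, although many members outside CG lay close together in the chromosome 2 hot spot. The separation is therefore a description and not a test. Without the chromosome 2 hot spot the shares of members were 21.1% of 76 (13.4 to 31.5%) for 5fC and 19.6% of 46 (10.7 to 33.2%) for 5hmC, and the intervals for 5hmC then overlapped. At the same distance upstream 10.9% of 5fC and 11.2% of 5hmC members outside CG had a listed CG, against 4.48% and 5.99% of the cytosines outside CG with under 500 reads and 6.21% and 7.11% of those with 100 to 499. Without the chromosome 2 hot spot the upstream shares of members were 6.58% of 76 and 6.52% of 46, close to these.

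The description of the hot spots as repeat-like was checked from the spacing of listed cytosines, because neither a genome sequence nor a repeat annotation of mm9 was used here. In a tandem repeat the same cytosines recur at fixed distances. All pairs of listed cytosines of the same strand were counted at each distance from 26 to 1000 bases. Short distances have more pairs in any compact hot spot, so single distances that stand above their neighbours are the feature to read. In the chromosome 2 hot spot the most frequent distance was 118 bases in both lists, with 89 5fC and 71 5hmC pairs, 5.33 and 5.15 times the mean over distances. In the first chromosome 9 hot spot 28 bases led for 5fC with 76 pairs, 6.63 times the mean, and 58 bases for 5hmC with 36 pairs, 4.70 times. In the second, 58 bases led in both lists, with 26 5fC and 21 5hmC pairs, 5.27 and 5.20 times the mean.

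The same distances recurred among these 3 hot spots. Pairs 28 and 58 bases apart ranked among the 8 most frequent distances in each of them and in both lists. These ranks are not corrected for the excess of pairs at short distances. At 50 bases, a shorter distance than 58, 5fC and 5hmC pairs stood at 2.09 and 2.03 times the mean on chromosome 2, against 3.35 and 3.12 at 58. The values at 50 bases were 1.74 and 1.04 in the first chromosome 9 hot spot and 3.24 and 3.71 in the second. Pairs 234 bases apart, the unit length of the major satellite, stood at 3.11 and 2.97 times the mean for 5fC and 5hmC on chromosome 2, at 3.31 and 3.39 times in the first and at 1.62 and 1.98 times in the second hot spot of chromosome 9. The second is only 340 bases long. A distance of 2 units, 468 bases, stood at 3.14 and 3.26 times the mean in the first chromosome 9 hot spot but at 1.14 and 1.30 times on chromosome 2, where 251 bases stood higher, at 3.65 and 3.77 times. On chromosome 11 no distance exceeded 1.84 times the mean for 5fC or 1.70 times for 5hmC. On chromosome 15 the leading distances were others, 92 and 228 bases with 13 5fC pairs each, 4.76 times the mean, and 89 bases with 10 5hmC pairs, 6.05 times. On chromosome 18 the leading distance had 6 pairs in either list, 8.12 times the mean at 125 bases for 5fC and 7.67 times at 48 bases for 5hmC. With so few pairs a high multiple of the mean is reached easily. Distances shared between hot spots and between lists, with over 15 pairs each, were thus seen in the 3 leading hot spots, and no distance stood out on chromosome 11. The 15-member hot spot of chromosome 8 had a mean of 0.613 5fC and 1.43 5hmC pairs per distance, too few to tell.

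**Figure D5:**
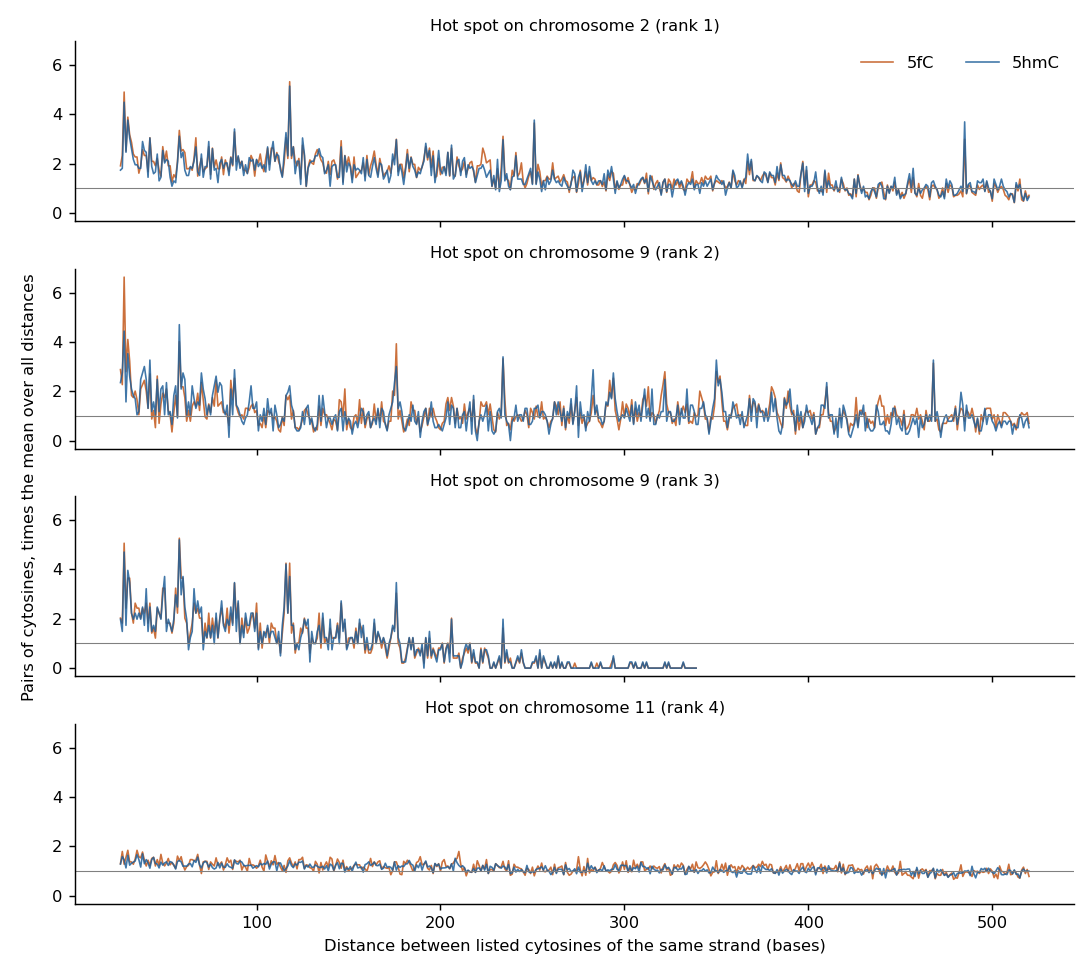
For the 4 hot spots with the most reads, the number of pairs of listed cytosines on the same strand is plotted against their distance in bases, divided by the mean over distances, for 5fC and 5hmC; the grey line marks the mean. Peaks at 28 and 58 bases stand out in the 3 upper panels and at 118 bases in those of rank 1 and rank 3, whereas on chromosome 11 the highest value is 1.84.

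Whether hot spots on different chromosomes shared one pattern was examined by sliding the listed 5fC cytosines within 150 bases of the deepest 5fC member of a hot spot along another hot spot, in both orientations. The largest number that fell on a listed 5fC cytosine of the same strand and dinucleotide was counted. Of the 65 cytosines around the deepest member of the second chromosome 9 hot spot, 35 matched on chromosome 2 and 31, in reverse orientation, in the first chromosome 9 hot spot. Of the 64 around the deepest member on chromosome 2, 24 matched in the second and 19 in the first chromosome 9 hot spot, and 8 on chromosome 11. From the second chromosome 9 hot spot only 7 matched on chromosome 11, which offered 2145 cytosines against 459 on chromosome 2. Of the 35 cytosines around a pair of CG members of chromosome 4 at 70039173 to 70039232, 20 matched on chromosome 2 and 6 on chromosome 11. Of the 22 around 3 members of chromosome 12 at 3110029 to 3110039, 14 matched on chromosome 2, 15 in the second chromosome 9 hot spot and 5 on chromosome 11. Of the 31 around 3 members of chromosome 6 that begin at 103599161, 14 matched on chromosome 2 but 7 in the second chromosome 9 hot spot and 5 on chromosome 11. The hot spot of chromosome 15 matched 8 of 57 on chromosome 2 and 6 on chromosome 11. Of the 31 around the lone CG member of chromosome 12 at 75905424, 10 matched on chromosome 2 and 5 on chromosome 11. Many cytosines slid from chromosomes 2 and 4, the second hot spot of chromosome 9 and chromosome 12 near 3110029 thus found a match. Toward chromosome 2 or the second hot spot of chromosome 9 the share was 37.5% to 68.2%. The members of chromosome 6 lay within this range toward chromosome 2, at 45.2%, but at 22.6% toward the second hot spot of chromosome 9. Toward the first hot spot of chromosome 9 the share was 29.7% from chromosome 2, 45.7% from chromosome 4, 47.7% from the second hot spot and 50% from chromosome 12 near 3110029. The lone member of chromosome 12 reached 32.3% toward chromosome 2. Chromosomes 4 and 12 were not compared with each other, and the first hot spot of chromosome 9 was a target alone. Matches were fewer for chromosomes 11 and 15. The matches are a description, with no chance level, and taking the best of many shifts raises the count for any pair.

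The members of chromosome 12 at 3110029 to 3110039 were all outside CG and all chosen by 5fC alone. They had 799, 1212 and 797 5fC reads, against 98, 203 and 85 5hmC reads. The pair on chromosome 4 had 1260 and 2807 5fC reads, against 4251 and 1587 5hmC reads.

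The hot spot of chromosome 11, from 3026038 to 3093859, differed in its members. Its 130 members were spread over 67822 bases and 117 of them were CG. They had 62 to 1347 5fC reads with a median of 262.5, and 45 to 2962 5hmC reads with a median of 722.5, so that no single cytosine stood out: the deepest held 3.22% of the 5fC and 2.79% of the 5hmC member reads. Most entered through 5hmC, 124 of 130, and 22 through 5fC. The ratio of summed member reads was 0.394, next to the autosomal 0.389, and 7 members had more 5fC than 5hmC reads. Because most members entered through 5hmC, that ratio follows in part from the choice. Over every listed cytosine of the hot spot, members or not, the ratio was 0.477 at CG and 0.826 outside CG. Both were above the autosomal 0.354 and 0.619. Members took only 30.4% of the 5fC and 42.9% of the 5hmC reads between the ends of the hot spot, against 97.2% and 99.1% on chromosome 2. The median listed cytosine there had 24 5fC and 11 5hmC reads, above the autosomal 12 and 8, so that cytosines other than members were deep as well. Of all cytosines listed there, 40.5% for 5fC and 31.9% for 5hmC were CG. Among autosomal sites under 500 reads these shares were 75.1% and 76.3%, and in the chromosome 2 hot spot 14.4% and 18.4%. In the chromosome 11 hot spot CG took 66.0% of the 5fC and 77.1% of the 5hmC reads. Over the autosomes it took 78.9% and 86.8%.

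A group on chromosome 8 had members like those of the chromosome 11 hot spot. Between 19713464 and 20004522, 8 hot spots within 291 kb held 28 members, all of them CG and all with 500 or more 5hmC reads. Only 2 had 500 or more 5fC reads. The members had 74 to 527 5fC reads with a median of 186, and 517 to 1595 5hmC reads with a median of 709. Their median ratio was 0.250, below the autosomal one, which follows from their choice by 5hmC reads. The largest of these hot spots, with 15 members, spanned 29613 bases. Over every listed cytosine in it, members or not, the ratio was 0.362 at CG and 0.702 outside CG. The autosomal values were 0.354 and 0.619. The other 5 members of chromosome 8 lay outside the 291 kb of the group. A hot spot of 5 CG members on chromosome 17, from 3079401 to 3082311, had the same make-up, with 126 to 362 5fC reads and 546 to 1491 5hmC reads.

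Smaller hot spots varied. On chromosome 15, from 74916242 to 74917369, 12 members spanned 1128 bases, 8 of them CG, and 11 had 500 or more reads in both lists. Their 5fC reads ran from 531 to 12155 and their 5hmC reads from 224 to 15303, with a ratio of summed reads of 0.711. The CG dyad at 74917322 had 12155 5fC and 8901 5hmC reads on the plus strand and 5805 5fC and 15303 5hmC reads on the minus strand, so that the plus strand was deeper for 5fC and the minus strand for 5hmC. On chromosome 18, from 3005345 to 3010386, 7 members had 11896 5fC and 10830 5hmC reads, and a CA cytosine at 3005964 held 7559 of the 5fC and 4819 of the 5hmC reads. A lone CG cytosine on the plus strand of chromosome 12 at 75905424 had 1911 5fC and 5673 5hmC reads.

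The 46 lone members were mostly close to the threshold and mostly CG. Of them 11 were chosen by 5fC alone, with 505 to 917 5fC and 59 to 317 5hmC reads, and 9 of these were CG. Another 30 were chosen by 5hmC alone, with up to 442 5fC and 505 to 1845 5hmC reads, and 26 of these were CG. The remaining 5 had 581 to 3121 5fC and 645 to 5673 5hmC reads, and 3 were CG. In all hot spots of fewer than 10 members, 77.2% of 92 members were CG and the median ratio was 0.324. In those of 10 or more, 54.9% of 428 were CG and the median ratio was 0.820.

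Read numbers of the marks ran in parallel within hot spots to different degrees. Spearman's correlation across members was 0.61 over 160 cytosines on chromosome 2, 0.27 over 76 and 0.43 over 35 in the chromosome 9 hot spots, 0.36 over 130 on chromosome 11, 0.47 over 15 on chromosome 8 and 0.86 over 12 on chromosome 15. These cytosines share their libraries and were chosen by the values compared, so the correlations are descriptions.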

How the data were processed

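The data are 2 tables of modified cytosines, 1 for 5fC and 1 for 5hmC. The authors deposited whole-number read counts per cytosine, not normalized, pooled over libraries. The submitters' processing notes name Bowtie, cutadapt, bcl2fastq and CASAVA, with mm9 as the build. Read assignment, the listing rule, treatment of multiply placed or duplicate reads, and the way of telling 5fC from 5hmC were not given in the sources used here. The labels of all 4 5hmC libraries name the same table, which was taken as that of passage 14.

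Members had 500 or more reads in either list on chromosomes 1 to 19, and were joined into hot spots when less than 10 kb apart. Named hot spots were the 10 with the most member reads and those of 10 or more members. Named cytosines were the 5 deepest of each list, the 3 highest and 3 lowest ratios and those missing from a list. Others named were chosen after their values were seen. Spacings used distances from 26 bases up to 1000, and patterns needed 20 listed cytosines. The members and lists were chosen with earlier results of these data known. Python 3.11.15, numpy 2.4.6, pandas 2.3.3, scipy 1.17.1 and matplotlib 3.10.9 were used. The functions were tested on simulated data and passed 6 of 6 checks. Genes and sequences were not analysed here. Intervals cover counting error only.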

Additional observations from a re-analysis of the deposited data

Results flagged for a closer look

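Cytosines with 500 or more reads on the sex chromosomes lie outside the autosomal choice and are above the limit of 3 reads set by a count of 0, which background passes too. On chromosome X there were 10 such cytosines for 5fC and 13 for 5hmC, and on chromosome Y 1 for 5fC and 15 for 5hmC. The 10 5fC cytosines of chromosome X lay between 139917592 and 139917630, and 2 of them were CG. The deepest, a minus-strand CG at 139917601, had 11878 5fC and 23661 5hmC reads. Of the 21 listed 5fC cytosines within 150 bases of it, 15 matched the strand and dinucleotide of listed cytosines in the chromosome 2 hot spot at 1 shift, 6 in the first chromosome 9 hot spot and 5 on chromosome 11. On chromosome Y, 14 of the 15 5hmC cytosines were CG, and the deepest, at 2858128, had 793 5fC and 1675 5hmC reads.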

How the results depend on the processing

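Numbers of members follow the threshold. At least 200 reads gave 2505 members in 1371 hot spots and at least 1000 gave 234 in 29, the scaled 5fC threshold gave 2010 members and CG alone 306. Joining within 1 kb gave 112 hot spots, with 87.5% of members in those of 2 or more. The share of 5hmC members listed for 5fC was 100% with at least 1000 reads or at CG alone and 97.8% outside CG. The CG share of members, 58.8%, was 80.1% with at least 200 reads and 80.9% over the deepest member of each hot spot. Leaving out the chromosome 2 hot spot of 160 members, an alternative added after the data were seen, made it 73.6%, and the median ratio 0.394 in place of 0.690. That ratio was 0.330 over the deepest member of each hot spot, 1.76 with at least 200 reads, 0.928 with at least 1000 and 2.51 with the scaled threshold, also added later. It thus rests on the chromosome 2 hot spot and on the threshold. The cause of these moves was not tested beyond what each setting changes. No paired analysis was possible because each cytosine has a single pooled read number in a list. For the same reason no library could be left out.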
